A study of Mus musculus with 5 samples.

Results

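The interleukin-1 family cytokines and their receptors were followed here through 8 genes, the agonists Il1a, Il1b, Il33 and Il18, the antagonist Il1rn, and the receptors Il1r1, Il1r2 and Il1rap. Every probe set of the array whose only gene symbol was one of these was taken, which gave 15 of the 45037 probe sets in the table and 8 of the 18193 genes with a probe set of a single symbol. Il1rap had 5 probe sets, Il1rn 3, Il1r1 2, and each of the other genes 1. In GRCm38.p6, Il1a (chr2:129299609-129310186), Il1b (chr2:129364569-129371164) and Il1rn (chr2:24336860-24351491) lie on chromosome 2, and Il1r2 (chr1:40084692-40125230) and Il1r1 (chr1:40222480-40316201) are close together on chromosome 1. Il18 lies at chr9:50554700-50581841, Il1rap at chr16:26581509-26730128 and Il33 at chr19:29925113-29960718. The cells were epithelial tumour cells of mouse prostates, taken from the dissociated tumours with EpCAM beads and kept on ice, and total RNA of each of 5 mice was hybridised to its own single-channel Affymetrix array. All mice were C57BL/6 and had floxed alleles, Smad4 (which encodes the shared SMAD partner in TGF-beta signalling) among them, deleted by the prostate-specific Probasin driver. The 3 nDKO mice, 15.86, 10.71 and 10.71 weeks old, had no further deletion named, and in the 2 nTKO mice, 31.43 and 16 weeks old, floxed Pygo2, which encodes a chromatin reader and co-activator of beta-catenin, was deleted as well. Age and genotype are thus partly confounded, and deletion is limited to cells in which the Probasin driver has been active.

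Interleukin-1 signalling starts inflammation at epithelial surfaces. The agonists interleukin-1 alpha and beta bind the receptor Il1r1, which then recruits the accessory chain Il1rap and signals through the adaptor Myd88 to NF-kB. Il1rn occupies Il1r1 without signalling, and Il1r2 is a decoy that binds the agonists but lacks the signalling domain. Interleukin-33, a nuclear alarmin of epithelia, signals through its own receptor together with Il1rap, while interleukin-18 uses a separate receptor pair. Interleukin-1 beta and interleukin-18 are made as precursors that caspase-1 cleaves in the inflammasome, and myeloid cells, neutrophils among them, are strong producers of interleukin-1 beta and carriers of the decoy receptor.

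All 8 genes had an entry among the RefSeq promoters of GRCm38.p6, with 12 start sites between them. The 250 bases before the start are shown for Il1b, Il1r2 and Il1rap, which were all highest in nTKO 1 and lowest in nTKO 2, and for Il33, which was highest in nDKO 1. The start sites are those of the promoter entries, and for Il1b, Il1r2 and Il1rap they lie inside the gene limits given above. Letters run in the direction of transcription, and capitals mark matches on either strand to 4 motifs, namely NF-kB (GGG and CC with any 5 bases between them), C/EBP (TTNNGNAA), AP-1 (TGANTCA) and the TATA box (TATAAA). The matches may overlap each other.
Il1b, chr2:129371140-129371389, minus strand: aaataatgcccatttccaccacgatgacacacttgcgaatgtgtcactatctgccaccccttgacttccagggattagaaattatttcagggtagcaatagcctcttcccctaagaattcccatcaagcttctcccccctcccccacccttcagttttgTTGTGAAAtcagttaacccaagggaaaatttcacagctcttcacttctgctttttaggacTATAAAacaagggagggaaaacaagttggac
Il1r2, chr1:40085843-40086092, plus strand: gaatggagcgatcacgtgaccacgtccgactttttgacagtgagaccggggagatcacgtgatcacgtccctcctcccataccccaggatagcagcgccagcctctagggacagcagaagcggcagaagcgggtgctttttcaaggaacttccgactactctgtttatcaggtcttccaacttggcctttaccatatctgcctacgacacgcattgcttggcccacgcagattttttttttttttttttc
Il1rap, chr16:26581455-26581704, plus strand: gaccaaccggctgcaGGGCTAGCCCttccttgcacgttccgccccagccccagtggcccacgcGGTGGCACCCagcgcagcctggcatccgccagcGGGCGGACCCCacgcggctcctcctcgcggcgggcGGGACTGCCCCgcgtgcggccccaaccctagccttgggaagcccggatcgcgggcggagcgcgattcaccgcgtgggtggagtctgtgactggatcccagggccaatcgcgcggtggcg
Il33, chr19:29924863-29925112, plus strand: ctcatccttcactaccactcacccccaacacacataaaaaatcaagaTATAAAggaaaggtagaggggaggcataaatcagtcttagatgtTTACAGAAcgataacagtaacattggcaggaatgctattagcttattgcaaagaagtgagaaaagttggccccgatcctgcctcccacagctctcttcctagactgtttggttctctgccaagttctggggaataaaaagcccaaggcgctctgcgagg
Counted back from the start site, Il1b held a TATA box match from -31 to -26 and a C/EBP match from -91 to -84. Il1rap held 9 NF-kB matches over both strands, at 4 places, and no match to the other motifs. Il1r2 held no match to any of the 4 motifs. The start of Il33 shown here held a TATA box match from -203 to -198 and a C/EBP match from -159 to -152. Of all 32841 promoters of this length with no undetermined base, 45.8% held an NF-kB match, 36.9% a C/EBP match, 6.75% an AP-1 match and 12.4% a TATA box match, so that matches of these short patterns are common.

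Values are log2 signals, on which 1 unit is a factor of 2, and the median of each array lay between 4.94 and 4.98. The first principal component over genes held 52.1% of the variance and set nDKO 1 (-36.9) and nTKO 1 (-16.7) apart from the other arrays (14.5 to 23.6), and those 2 arrays had the highest medians of the squamous differentiation markers (9.84 and 8.55 against 5.44 to 6.09). Epithelial markers were bright on every array, with medians of 12.59 to 13.04 over the 7 genes of that list, Epcam and Krt8 among them. Neutrophil markers (13 measured) had medians of 6.23, 5.99 and 6.49 in the nDKO mice, 7.80 in nTKO 1 and 5.73 in nTKO 2. Results are therefore also given without nDKO 1 and nTKO 1.

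No member passed the comparison of the genotypes, which asks whether a transcript differs between nTKO and nDKO cells. Age was not in this fit, and both nTKO mice were older than every nDKO mouse. Of the 15 member probe sets, 0 had an adjusted p under 0.05 in limma, and neither had any of the 45037 probe sets (0% called, smallest adjusted p 0.799). An unadjusted p under 0.05 was found for 1 member probe set, of Il1rn, against 3.8% of all probe sets. A fold of at least 2 together with that p was found for 0 members and for 0.113% of all probe sets. Means were lower in nTKO cells for 6 member probe sets (42.8% of all probe sets) and higher for 9, with a median log2 fold change of 0.042 (0.017 over all probe sets). The groups did not overlap for 1 of 15, again of Il1rn on the lower side, where 5.17% of all probe sets lay below and 7.02% above every nDKO array. An exact permutation test of 3 against 2 arrays cannot give a p below 0.1. For Il1b, Il1r2, 2 probe sets of Il1rn and 3 of Il1rap, as for Il33, the 2 nTKO mice were at least 2-fold apart, while Il18, Il1r1 and the other probe sets showed smaller gaps between them.

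**Figure D1:**
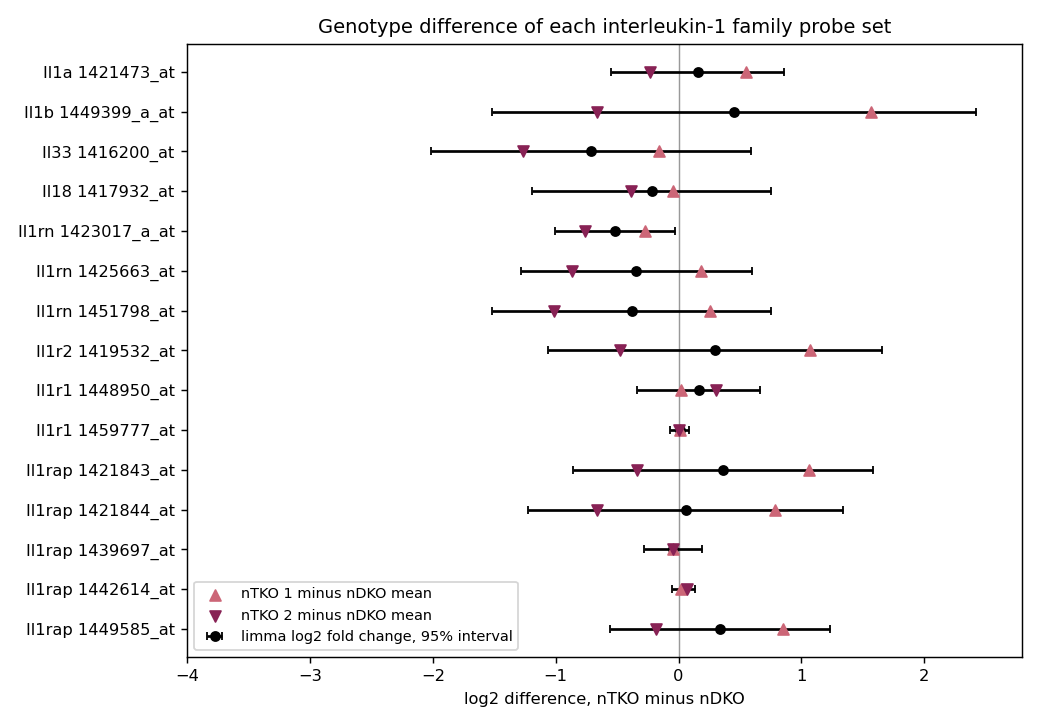
Log2 difference between nTKO and nDKO cells for the 15 member probe sets, named at the left by gene and probe set. Black points with bars are the limma log2 fold change and its 95% interval, and triangles are nTKO 1 (pointing up) and nTKO 2 (pointing down), each minus the mean of the 3 nDKO mice. The interval excludes 0 for Il1rn 1423017_a_at alone, and for Il1b the nTKO mice lie on opposite sides, at 1.57 and -0.66.

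Interleukin-1 beta had the widest span of the members. Il1b measured 8.11, 8.41 and 8.60 in nDKO 1, 2 and 3, 9.94 in nTKO 1 and 7.71 in nTKO 2. The nTKO mice were thus the highest and the lowest of all 5, and differed by 4.69-fold, while the nDKO mice spanned 0.49 on the log2 scale. The log2 fold change was 0.45 (SE 0.72, 95% interval -1.52 to 2.42, limma adjusted p = 0.878). It was -0.66 without nTKO 1 and 1.57 without nTKO 2, so that the direction rested on 1 mouse. Without nDKO 1 and nTKO 1 it was -0.795. A fit that included log2 age gave -0.74, and the 2 mice closest in age, nTKO 2 and nDKO 1, differed by -0.40. In such bulk samples, fewer cells that make a transcript and less of it per cell cannot be told apart.

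Interleukin-1 alpha gave a dim signal, with the same highest and lowest mouse as Il1b. Il1a measured 2.86, 2.81 and 3.04 in the nDKO mice, 3.45 in nTKO 1 and 2.67 in nTKO 2. All of these lie well under the array medians, and no detection calls were used here, so that a level near background is possible. The log2 fold change was 0.16 (SE 0.26, limma adjusted p = 0.883), and -0.23 without nTKO 1.

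Interleukin-33 was bright and had its highest value in another mouse. Il33 measured 11.82, 11.02 and 10.88 in the nDKO mice, 11.08 in nTKO 1 and 9.97 in nTKO 2. Here nDKO 1 was highest and nTKO 2 lowest, 3.61-fold apart, and nTKO 1 lay between the nDKO mice. Of the 9 measured basal epithelial markers, 7 were also highest in nDKO 1, and 3 of these were lowest in nTKO 2. Over all genes, 17.9% were highest in nDKO 1 and 17.5% lowest in nTKO 2. The 3 were the keratins Krt5 (13.1 in nDKO 1 and 10.52 in nTKO 2), Krt14 (12.89 and 9.96) and Krt15 (13.68 and 12.77). In nTKO 1, Krt5 (12.35) and Krt14 (11.9) lay above nDKO 2 (10.87 and 11.17). Itga6, Itgb4, Lamb3 and Col17a1 were lowest in nTKO 1, and Lamb3 was highest in nTKO 2. Of the 18 squamous markers, 8 were highest in nDKO 1 and lowest in nTKO 2. The seminal vesicle markers had their lowest median in nDKO 1 (8.86 against 12.37 to 13.61 in the other mice), and all 5 measured were lowest there. The part of these cell types in the Il33 signal was not tested. The log2 fold change was -0.71 (SE 0.48, 95% interval -2.02 to 0.59, limma adjusted p = 0.799). It was -1.27 without nTKO 1 but -0.16 without nTKO 2, and -0.425 without nDKO 1, so its size rested on nTKO 2 and nDKO 1. Without nDKO 1 and nTKO 1, which leaves 1 nTKO mouse, the difference was -0.98. A fit that included log2 age gave -1.82 (limma adjusted p = 0.381, unadjusted 0.000952). In that fit 2290 probe sets were higher and 1801 lower with an unadjusted p under 0.05. The 2 mice closest in age across the genotypes differed by -1.85, and these are the lowest and the highest array for Il33. Among the members with 1 probe set, Il33 was the 1 whose mean stayed lower in nTKO cells in each of the 12 alternatives tried for it.

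Interleukin-18 was set apart by 1 nDKO mouse. Il18 measured 8.48 in nDKO 1, 7.51 and 7.61 in the other nDKO mice, 7.82 in nTKO 1 and 7.48 in nTKO 2. Apart from nDKO 1, all arrays lay between 7.48 and 7.82. The log2 fold change was -0.22 (SE 0.36, limma adjusted p = 0.883), and 0.09 without nDKO 1. Without nDKO 1 and nTKO 1 it was -0.08. A fit that included log2 age gave -0.87 (limma adjusted p = 0.646). The 2 mice closest in age across the genotypes differed by -1 on the log2 scale, a pair that includes nDKO 1.

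**Figure D2:**
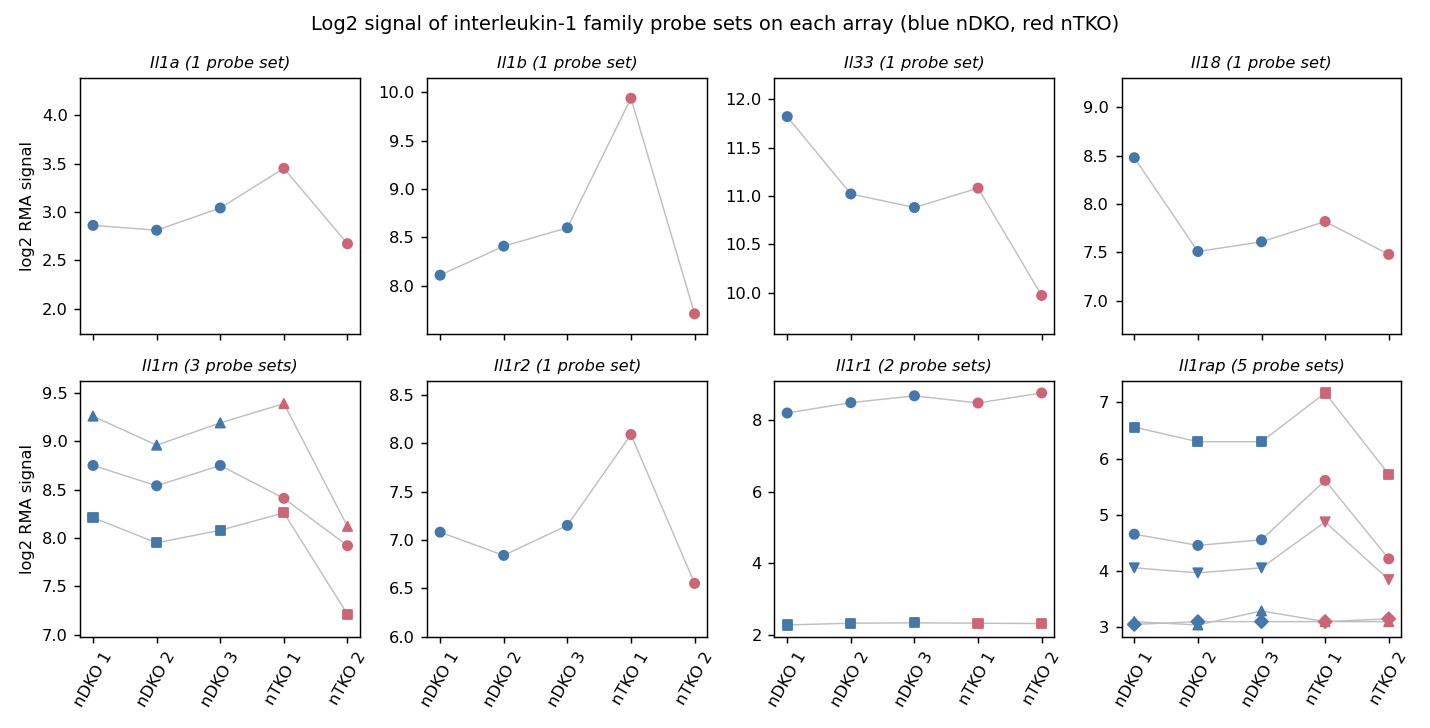
Log2 signal of each member on the 5 arrays, 1 panel per gene, with nDKO mice in blue and nTKO mice in red. Each line with its own marker shape is 1 probe set, the lines join arrays of 1 probe set and show no time course, and the vertical axes differ between panels. Il1b, Il1r2 and 3 probe sets of Il1rap peak in nTKO 1 and are lowest in nTKO 2, and Il33 and Il18 are highest in nDKO 1.

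The receptor antagonist had the 1 probe set whose groups did not overlap. Il1rn 1423017_a_at measured 8.75, 8.54 and 8.75 in the nDKO mice against 8.41 in nTKO 1 and 7.92 in nTKO 2. Both nTKO mice were below every nDKO mouse, with a log2 fold change of -0.52 (SE 0.18, 95% interval -1.004 to -0.026), an unadjusted p of 0.0428 and a limma adjusted p of 0.799. The difference was -0.27 without nTKO 2 and -0.76 without nTKO 1. Without nDKO 1 and nTKO 1 it was -0.725, and in a fit that included log2 age -0.87 (limma adjusted p = 0.423).

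Its other probe sets did not separate the genotypes. Il1rn 1451798_at, the brightest of the 3, measured 9.26, 8.96 and 9.19 in the nDKO mice, 9.39 in nTKO 1 and 8.12 in nTKO 2. On it nTKO 1 was highest, as on 1425663_at, which measured 8.21, 7.95 and 8.08 in the nDKO mice, 8.26 in nTKO 1 and 7.21 in nTKO 2. The log2 fold changes were -0.38 (SE 0.42, limma adjusted p = 0.839) and -0.345 (SE 0.345, limma adjusted p = 0.825). They turned to 0.25 and 0.18 without nTKO 2. Without nDKO 1 and nTKO 1 they were -0.955 and -0.805, and in a fit that included log2 age -1.26 and -1.09 (limma adjusted p = 0.477 and 0.44). Between the 2 mice closest in age across the genotypes they were -1.14 and -1. All 3 probe sets thus had nTKO 2 as the lowest array and disagreed on nTKO 1. Which transcripts each probe set detects was not tested.

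The decoy receptor had the same highest and lowest mouse as interleukin-1 beta. Il1r2 measured 7.08, 6.84 and 7.15 in the nDKO mice, 8.09 in nTKO 1 and 6.55 in nTKO 2. The nTKO mice differed by 2.91-fold and enclosed the nDKO mice, which spanned 0.31 on the log2 scale. The log2 fold change was 0.30 (SE 0.50, 95% interval -1.06 to 1.66, limma adjusted p = 0.886). It was -0.47 without nTKO 1 and 1.07 without nTKO 2, and -0.445 without nDKO 1 and nTKO 1.

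The signalling receptor had the narrowest span among the brightest probe sets of the members, 0.56 on the log2 scale. Il1r1 1448950_at measured 8.20, 8.49 and 8.68 in the nDKO mice, 8.48 in nTKO 1 and 8.76 in nTKO 2. This was the 1 bright member probe set with its highest value in nTKO 2, and its lowest was in nDKO 1. Its log2 fold change was 0.16 (SE 0.18, 95% interval -0.34 to 0.66, limma adjusted p = 0.841), 0.023 without nTKO 2 and 0.035 without nDKO 1. Without nDKO 1 and nTKO 1 it was 0.175. It was larger, 0.30, without nTKO 1, and 0.52 in a fit that included log2 age (limma adjusted p = 0.551). Between the 2 mice closest in age across the genotypes it was 0.56. The second probe set, 1459777_at, lay between 2.28 and 2.34 on all arrays.

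The accessory chain Il1rap, shared by the receptors of interleukin-1 and interleukin-33, had 3 probe sets that varied and 2 that did not. The brightest, 1421844_at, measured 6.56, 6.30 and 6.30 in the nDKO mice, 7.17 in nTKO 1 and 5.72 in nTKO 2. On 1421843_at the nDKO mice measured 4.65, 4.45 and 4.55, nTKO 1 5.61 and nTKO 2 4.21, and 1449585_at gave 4.05, 3.96 and 4.05, then 4.87 and 3.84. All 3 were highest in nTKO 1 and lowest in nTKO 2, by 2.73-fold, 2.64-fold and 2.04-fold. Their log2 fold changes were 0.058, 0.36 and 0.335 (SE 0.47, 0.45 and 0.33), and became -0.67, -0.34 and -0.18 without nTKO 1. The other probe sets, 1439697_at and 1442614_at, lay between 3.03 and 3.28 on all arrays. Over the 5 Il1rap probe sets, limma adjusted p-values lay between 0.802 and 0.99.

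The same highest and lowest mouse recurred among the members. Of the 15 probe sets, 8 were highest in nTKO 1 and lowest in nTKO 2, which held for 5.5% of all probe sets. They belong to Il1a, Il1b, Il1rn (2), Il1r2 and Il1rap (3), so that several share a gene and do not count as separate observations. By the brightest probe set of each gene, this was 5 of 8 members against 6.26% of all genes. A span of at least 1 log2 unit over the 5 arrays was found for 9 of 15 member probe sets and for 5.61% of all. The count was again 8 after quantile normalization and after median centring, both chosen after seeing the data. As this pattern was noticed in the same values, the counts are a description.

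Many markers of neutrophils had the same highest and lowest mouse. Of the 13 measured neutrophil genes, 12 were highest in nTKO 1, 9 were lowest in nTKO 2 and 8 were both. Over all genes these shares were 30.8%, 17.5% and 6.26%. The mean level of the 13 neutrophil genes was 7.21 to 7.50 in the nDKO mice, 8.59 in nTKO 1 and 6.76 in nTKO 2. The calgranulin S100a9 measured 10.01, 9.26 and 9.99 in the nDKO mice, 12.94 in nTKO 1 and 7.93 in nTKO 2, and the G-CSF receptor Csf3r 6.86, 6.60 and 7.15, then 7.80 and 6.30. Granule genes of immature neutrophils were dim, with Ngp at 3.78 to 4.38 and Camp at 3.43 to 3.61, while Ltf and Lcn2, which secretory epithelium also makes, were bright on all arrays (at least 12.55). Macrophage markers (14 measured) had 1 such gene, with medians of 7.59, 6.965 and 8.08 in the nDKO mice, 7.505 in nTKO 1 and 6.975 in nTKO 2. The part of neutrophil RNA in the member signals was not tested.

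**Figure D3:**
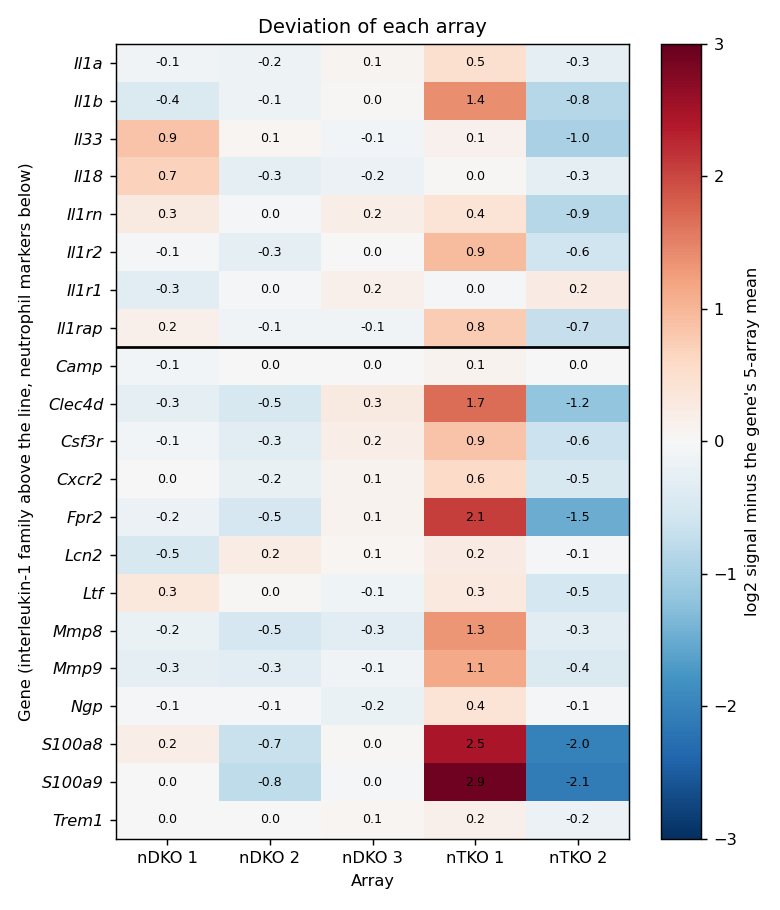
Log2 signal of each array minus the mean of the gene over the 5 arrays, for the brightest probe set of each of the 8 members (above the line) and for the 13 measured neutrophil markers (below it). Red is above and blue below the mean of the gene, and numbers are the differences to 1 decimal. Il1b, Il1r2 and Il1rap share with S100a8, S100a9, Clec4d and Fpr2 a high nTKO 1 and a low nTKO 2.

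Genes with the most similar patterns were found for the 6 members that spanned at least 1 log2 unit, by the root mean square difference from the member over the 5 arrays after centring each gene. The search covered 1303 genes, and the arrays shared are the same 5, so the values are descriptions. Nearest to Il1b were Hdc, histidine decarboxylase (0.099 log2 units), Samsn1 (0.12) and G0s2 (0.14). Nearest to Il1r2 were the myeloid lectin Clec5a (0.023), Csf3r (0.10), which is also one of the neutrophil markers, and the syntaxin Stx11 (0.11). For Il1rap these were the transcription factor Cebpb (0.11), Igfbp6 (0.11) and the clock gene Per2 (0.13), and for Il1rn the kinase Syk (0.15), moesin, Msn (0.15), and destrin, Dstn (0.16).

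Il33 and Il18 had other neighbours. Those of Il33 were Zfp820 (0.071), the membrane mucin Muc1 (0.08) and the surface protein Ly6d (0.09). Muc1 measured 9.43, 8.72 and 8.72 in the nDKO mice, 8.75 in nTKO 1 and 7.74 in nTKO 2, the order of Il33. Those of Il18 were the glutathione transferase Gstm1 (0.044), Acaca, the first enzyme of fatty acid synthesis (0.045), and Amotl1 (0.048), each highest in nDKO 1. Among the members themselves, the closest pair was Il1r2 and Il1rap (0.17) and the most distant pair was Il18 and Il1b (0.83).

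The log2 difference between antagonist and agonist was lowest in nTKO 1, where Il1b lay 1.57 above the nDKO mean and Il1rn 0.25 above it by 1451798_at. Within an array, the log2 difference Il1rn minus Il1b (by 1451798_at) was 1.15, 0.55 and 0.59 in the nDKO mice, -0.55 in nTKO 1 and 0.41 in nTKO 2. Only its change between arrays can be read, since the probes differ. It was lower than the nDKO mean of 0.76 (SD 0.34, n = 3) by -1.31 in nTKO 1 and by -0.35 in nTKO 2. With 1425663_at these changes were -1.39 and -0.21, and with 1423017_a_at -1.84 and -0.097. The difference Il1r2 minus Il1r1 was -1.12, -1.65 and -1.53 in the nDKO mice, -0.39 in nTKO 1 and -2.21 in nTKO 2, so the decoy changed against the signalling receptor in both directions. Both quantities were chosen after the values were seen and were not tested.

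Other ligands and receptors of the family were taken by their brightest probe set, and 0 of them had a limma adjusted p under 0.05 (unadjusted p under 0.05 was found for 3.74% of all genes). Of 6 other ligands and antagonists, 2 were higher and 4 lower in nTKO cells. Il1f9, the older symbol of interleukin-36 gamma, measured 7.35, 5.85 and 5.85 in the nDKO mice, 7.31 in nTKO 1 and 5.15 in nTKO 2. It was high in the 2 arrays with high squamous markers, and is named after its values were seen. The other named genes of this list were Il1f6 (-0.073), Il1f8 (-0.042) and Il1f5 (-0.16), which encode interleukin-36 alpha, beta and the interleukin-36 receptor antagonist, and Il18bp, the soluble inhibitor of interleukin-18 (0.195, but -0.065 without nDKO 1). Il1f6 and Il1f5 turned to 0.0067 and 0.067 without nTKO 2. Of 6 receptors measured, 3 were higher and 3 lower. The interleukin-18 receptor Il18r1 had a log2 fold change of -0.22, its partner Il18rap 0.072, the interleukin-36 receptor Il1rl2 -0.34 (-0.025 without nDKO 1), and the inhibitory receptor Sigirr -0.08 (0.06 without nTKO 1). The neuronal family member Il1rapl1 was dim (2.85 to 3.27) and had the smallest unadjusted p of this list (0.0291, log2 fold change 0.26, limma adjusted p = 0.799). Il1rl1, the receptor of interleukin-33, was not analysed here.

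Genes that activate or release the cytokines had 4 higher and 12 lower of 16 measured, with a median log2 fold change of -0.095 (0.028 over all genes), and 0 passed the test. With log2 age as a covariate the split was 12 higher and 4 lower. Casp4, the caspase of the non-canonical inflammasome, measured 8.12, 8.70 and 8.45 in the nDKO mice against 9.15 and 8.83 in the nTKO mice, all of them above (log2 fold change 0.57, SE 0.21, unadjusted p 0.0552, limma adjusted p = 0.799), and the difference was 0.255 without nDKO 1 and nTKO 1. Casp1, which cleaves interleukin-1 beta and interleukin-18, measured 9.26, 8.70 and 8.18 in the nDKO mice, 9.39 in nTKO 1 and 7.20 in nTKO 2. Like Il1b it was highest in nTKO 1 and lowest in nTKO 2, with a log2 fold change of -0.42 that was -1.51 without nTKO 1 and 0.68 without nTKO 2. The other genes with the smallest p in this list were Elane (0.15), Aim2 (-0.155, and -0.04 without nTKO 2) and Capn1 (-0.38, and -0.073 without nTKO 1).

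Receptor signalling genes had 14 higher and 7 lower of 21 measured (median 0.052), where 61% of all genes were higher, and 0 passed the test. The adaptor Myd88 lay between 9.11 and 9.30 on all arrays (log2 fold change -0.048). Irak3, a kinase-like inhibitor of the pathway, was above every nDKO mouse in both nTKO mice, with 4.05, 4.29 and 4.66 against 5.19 and 4.79 (log2 fold change 0.66, SE 0.23, unadjusted p 0.046, limma adjusted p = 0.799). It was 0.46 without nTKO 1 and 0.315 without nDKO 1 and nTKO 1. The ubiquitin ligase Peli2 was lower by a small amount (-0.16, unadjusted p 0.0349, limma adjusted p = 0.799), and Traf6 (0.115) and Ikbkb (0.18) lay above in both nTKO mice. In this list both nTKO mice were above every nDKO mouse for 5 genes and below for 1, against 8.13% and 4.71% of all genes. This list too was chosen with earlier results known, so the counts are a description.

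Genes known to be induced by interleukin-1 had 18 higher and 8 lower of 26, with a median log2 fold change of 0.12, and 0 passed the test. Without nTKO 1 they were split 13 to 13 (median 0.0017), and 16 of the 26 were highest in nTKO 1, against 30.8% of all genes. The list was chosen with earlier results of these data known, so its counts are a description. Both nTKO mice were above every nDKO mouse for 7, and below for 0, against 8.13% and 4.71% of all genes. Those with the smallest p were Saa1, Cxcl1, Saa2 and Saa3, with log2 fold changes of 2.05, 1.38, 1.56 and 1.94 and unadjusted p-values of 0.00353, 0.033, 0.0464 and 0.0566 (limma adjusted p = 0.799 for each). Cxcl1 was 1.57 and Saa1 1.62 without nTKO 1, while Saa2 was 0.76 and Saa3 0.96. The chemokine Cxcl2 was also above every nDKO mouse in both nTKO mice, with 9.18, 10.01 and 9.80 against 10.95 and 10.16. Its log2 fold change was 0.89 (limma adjusted p = 0.799). The other chemokines of the list overlapped, and in nTKO 2 Ccl20 (8.51), Cxcl5 (11.21), Ccl2 (4.03) and Cxcl3 (7.45) each lay below at least 1 nDKO mouse. Il6 was dim (2.35 to 2.61, log2 fold change 0.12), and Nfkbiz, an NF-kB co-regulator, had a log2 fold change of -0.14.

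**Figure D4:**
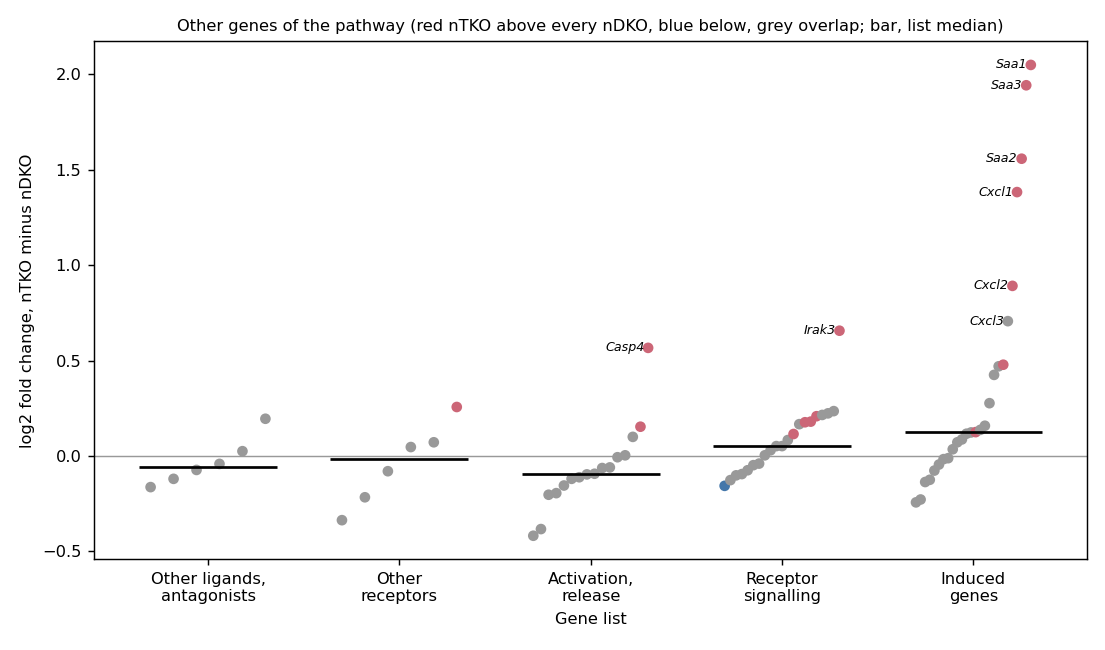
Log2 fold change between nTKO and nDKO cells for the genes of 5 lists around the interleukin-1 family, 1 point per gene by its brightest probe set. Red points have both nTKO mice above and blue points both below every nDKO mouse, grey points overlap, black bars are list medians, and genes changed by at least 0.5 are named. Induced genes reach 2.05 (Saa1), while the other ligands and receptors stay between -0.34 and 0.26.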

How the data were processed

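Expression in prostate tumour cells of 5 mice was measured on 1 array each. Each deposited value is the log2 signal of a probe set, with 2 decimals. The authors used RMA and Transcriptome Analysis Console software, per the submitters' processing notes, with no version stated there. Because RMA gives the probe intensities of every array the same distribution, a shift common to most genes is largely removed. Scanner files were not used here, and the number of arrays limits the precision.

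Of the probe sets, 34945 had 1 gene symbol, 932 several and 9160 none, and 0 with several named a member. All 45037 were fitted with limma 3.58.1 in R 4.3.3 (lmFit, eBayes with an intensity trend, no covariate, no filter, two-sided), with Benjamini-Hochberg adjustment over all and a threshold of 0.05. The fit had 3 residual degrees of freedom and 1.18 from the prior, and was tested on simulated data. The labels give each array its own mouse. Other genes were represented by their brightest probe set with a single symbol, and of each list up to 4 genes with the smallest p were named, with 8 named whatever their values. The members and lists were chosen with earlier results of these data known. Some items are not reported here. Promoters came from RefSeq (GRCm38.p6).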

Additional observations from a re-analysis of the deposited data

How the results depend on the processing

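With 3 against 2 mice, the genotype comparison had 0 probe sets past the test, members included, in every alternative tried, and 4 of the 15 member differences kept their direction in all 12 alternatives tried for them (Il33, Il1rn 1423017_a_at, Il1r1 1448950_at and Il1rap 1442614_at). Probe sets at least 2-fold apart with an unadjusted p under 0.05 numbered 51, and 24 with the brightest probe set of each gene, 587 with log2 age as a covariate, 97 without both nDKO 1 and nTKO 1, and 42 to 285 with 1 mouse left out (100 without nTKO 1, 285 without nTKO 2). Member probe sets with an unadjusted p under 0.05 numbered 1, and 0 with the brightest probe set of each gene, 0 with array weights, 4 with log2 age as a covariate, 4 without both nDKO 1 and nTKO 1, and 0 to 6 with 1 mouse left out (0 without nDKO 1, nDKO 2 or nDKO 3, 4 without nTKO 1, 6 without nTKO 2). The cause was not tested.

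Among the probe sets that kept their direction, Il1rap 1442614_at was dim and nearly flat (3.04 to 3.14, log2 fold change 0.042). Il1r1 1448950_at fell to 0.023 without nTKO 2. The Il1rap probe sets that varied each turned in 4 of the 12 alternatives. Directions turned as follows. With log2 age as a covariate, Il1a was -0.30, Il1b -0.74, Il1r2 -0.70, and Il1rap -0.58 (1421843_at), -0.97 (1421844_at) and -0.33 (1449585_at). Without both nDKO 1 and nTKO 1 these were -0.255, -0.795, -0.445, -0.29, -0.58 and -0.165. In the pair of like age across the genotypes they were -0.19, -0.40, -0.53, -0.44, -0.84 and -0.21. The dim Il1r1 1459777_at was -0.014 after quantile normalization, -0.0017 after median centring, -0.0034 with array weights and -0.015 without both arrays. With 1 mouse left out, ranges were -0.23 to 0.55 for Il1a, -0.66 to 1.57 for Il1b, -0.395 to 0.09 for Il18, -0.87 to 0.18 and -1.02 to 0.25 for Il1rn 1425663_at and 1451798_at, -0.47 to 1.07 for Il1r2, -0.01 to 0.02 for Il1r1 1459777_at, and -0.34 to 1.06, -0.67 to 0.78, -0.095 to 0.03 and -0.18 to 0.85 for Il1rap 1421843_at, 1421844_at, 1439697_at and 1449585_at.

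With the replicate number of the labels as a block, 90 probe sets were at least 2-fold apart with an unadjusted p under 0.05. Such a p was found for 3 of the members, and over all probe sets for 1348 higher and 946 lower. Il1rap 1439697_at was 0.03. Numbers 1 and 2 are shared by the genotypes, and the deviations of same-numbered arrays from their group means correlated at 0.38 and 0.31. With 2 nTKO arrays these deviations mirror each other, so the correlations are not separate and cannot show a pairing. The labels tie no pair to a litter or day, and do not say whether the numbers pair mice.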
